A study of Homo sapiens with 12 samples.

Results

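The genes described here are 34 named targets of the transcription factor p53, taken by gene name from the 58302 genes of the deposited table: 4 act in DNA repair and nucleotide supply, 6 in the cell cycle and growth arrest, 5 in RNA, ribosome and ubiquitin biology, 11 in metabolism, redox balance and signalling, and 8 in cell death, autophagy and secreted or surface signals. All 34 names were found, once each or by the entry with most counts. Their RNA was measured in 12 sequencing libraries of 2 established diffuse large B-cell lymphoma lines, with 3 libraries in each of 4 groups: OCI-LY3 with selinexor, OCI-LY3 untreated, SU-DHL6 with selinexor and SU-DHL6 untreated. Selinexor is a drug that inhibits XPO1, the protein that carries many others out of the nucleus. The labels assign OCI-LY3 to the activated B-cell type (ABC-DLBCL) and SU-DHL6 to the germinal centre B-cell type, and give the genotype WT for every library. They name doses of 300 and 100 nM and times of 24 and 48 h without tying either to a library, so dose and time may differ between the lines and no value below belongs to a stated dose or time. The triplicates are called biological, but how the cultures were kept apart is not described, so p-values measure the spread between these libraries, which may be technical.

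As background, p53 is held at a low level by the ubiquitin ligase MDM2, which is itself a p53 target, and p53 is among the proteins that XPO1 carries out of the nucleus. When p53 accumulates it binds DNA as a tetramer and raises genes that stop the cell cycle, repair DNA, adjust metabolism and promote cell death.

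Library totals ranged from 14210200 to 16405842 counts, and libraries within a group had pairwise correlations of 0.981 to 0.986 across genes, computed on log2 CPM, which are counts scaled to a common library size. Of 6 B-cell markers, 6 had counts in SU-DHL6 and 5 in OCI-LY3, with MS4A1 and PAX5 among those in both. All 5 germinal centre markers were lower in untreated OCI-LY3 than in untreated SU-DHL6, and 5 of 6 activated B-cell markers were higher, FUT8 being the exception. Of 5 T-cell markers, CD3G and CD2 had no count in any library. CD3E and CD8A rose in treated OCI-LY3, and the 5 summed to 3.16 to 4.89 CPM in treated and 0.0702 to 0.627 CPM in untreated OCI-LY3, and to 0.162 to 0.554 CPM in treated and 0.435 to 0.65 CPM in untreated SU-DHL6. Of 5 myeloid markers, LYZ and FCGR3A had no count in any library. In OCI-LY3 CSF1R rose and ITGAM fell, and the 5 summed to 19.3 to 21.5 CPM in treated and 29.3 to 32 CPM in untreated OCI-LY3, and stayed under 1 CPM in SU-DHL6. The part of these markers in the results was not tested. Because these are bulk libraries, a large change in some cells and a smaller one in all of them cannot be told apart.

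p53 binds a pair of decamers, runs of 10 bases, with C as the fourth and G as the seventh base of each. RefSeq promoter windows on GRCh38.p14, from 250 bases before to 50 bases after a gene's start, were found for 27 of the 34 genes. They were searched for the p53 decamer, whose definition reads the same on both strands. An exact decamer stood in the windows of 8 of 27 target genes (29.6%), against 2202 of 27305 genes in the table (8.06%). A pair with a spacer of at most 13 bases and at most 2 mismatches stood in 5 of 27 target genes (18.5%), against 989 of 27305 genes (3.62%). Pairs without any mismatch stood in 2 target genes (7.41%), against 10 of all genes (0.0366%). The best pair of each of these 5 target genes is shown, whatever the response of the gene to selinexor. Capitals mark the decamers, lower case marks the spacer, and each is written on the strand of its gene. A match is a description of the letters and not evidence of binding.
DDB2, chr11:47214979-47214999, + strand: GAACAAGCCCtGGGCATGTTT
PURPL, chr5:27472165-27472184, + strand: GGGCTTGTCTGGGCATGCCC
ABHD4, chr14:22598274-22598303, + strand: GGGCTCGCCAggacctggcaAGGCTTGTTT
AEN, chr15:88621306-88621325, + strand: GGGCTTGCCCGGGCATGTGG
FDXR, chr17:74872996-74873025, - strand: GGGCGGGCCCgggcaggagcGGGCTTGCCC
The DDB2 and PURPL pairs match without mismatch, and those of ABHD4, AEN and FDXR have 2 mismatches each. Counted from the RefSeq start, the DDB2 pair begins 5 bases after it, and the others begin 127 (PURPL), 26 (ABHD4), 34 (AEN) and 31 (FDXR) bases before it. RPS27L, SESN1 and PLK2 held an exact decamer with no pair at this limit.

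In OCI-LY3, selinexor was followed by higher RNA of most of these genes. Of the 34, 32 passed the filter on low counts; PLK2 had no count in any library and PHLDA3 too few. PURPL reached 10 counts only in treated OCI-LY3 libraries, and GDF15 only in untreated libraries. Each thus passed the filter only where it is high, and their calls are counted below with that limit. EDA2R passed through SU-DHL6 alone and had no count in OCI-LY3, which leaves 31 genes with counts there. By edgeR's quasi-likelihood test with Benjamini-Hochberg adjustment over 16474 genes, 24 of these 31 rose and 2 fell at an adjusted p under 0.05, against 22.2% higher and 22.2% lower among all tested genes. The members' shares were thus 77.4% higher and 6.45% lower. Their median log2 fold change was 0.89, also with GDF15 set at its bound, while the median over all tested genes was 0.00.

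In SU-DHL6 fewer of these genes were called. Of 32 with counts, 4 rose (12.5%) and 9 fell (28.1%), against 20.4% higher and 22.8% lower among all tested genes, so neither share is read as a result about these genes. Their median log2 fold change was -0.03. Scaling by library totals alone moved the median of all genes in SU-DHL6 to 0.27 and that of the members to 0.23, and gave 11 higher and 7 lower members, so directions in SU-DHL6 are relative to the bulk of its genes. The test of the difference itself, the OCI-LY3 response minus the SU-DHL6 response, was positive for 21 and negative for 1 of 31 genes, against 19.9% and 17.0% of all tested genes. The median difference was 1.08 on the log2 scale, with or without GDF15 and PURPL, whose fitted values rest on groups with almost no counts.

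**Figure D1:**
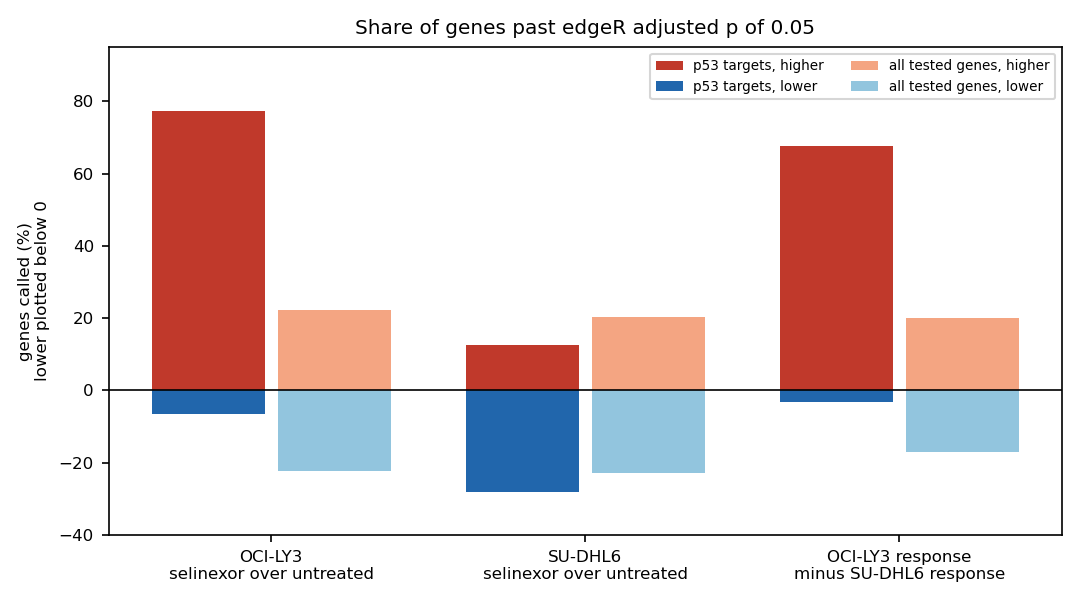
Share of p53 target genes and of all tested genes past an edgeR adjusted p of 0.05, with higher calls above 0 and lower calls below 0, for each line and for the difference of the responses. In OCI-LY3 77.4% of the target genes were higher against 22.2% of all genes, whereas the target genes' share in SU-DHL6 was 12.5% against 20.4%.

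**Figure D2:**
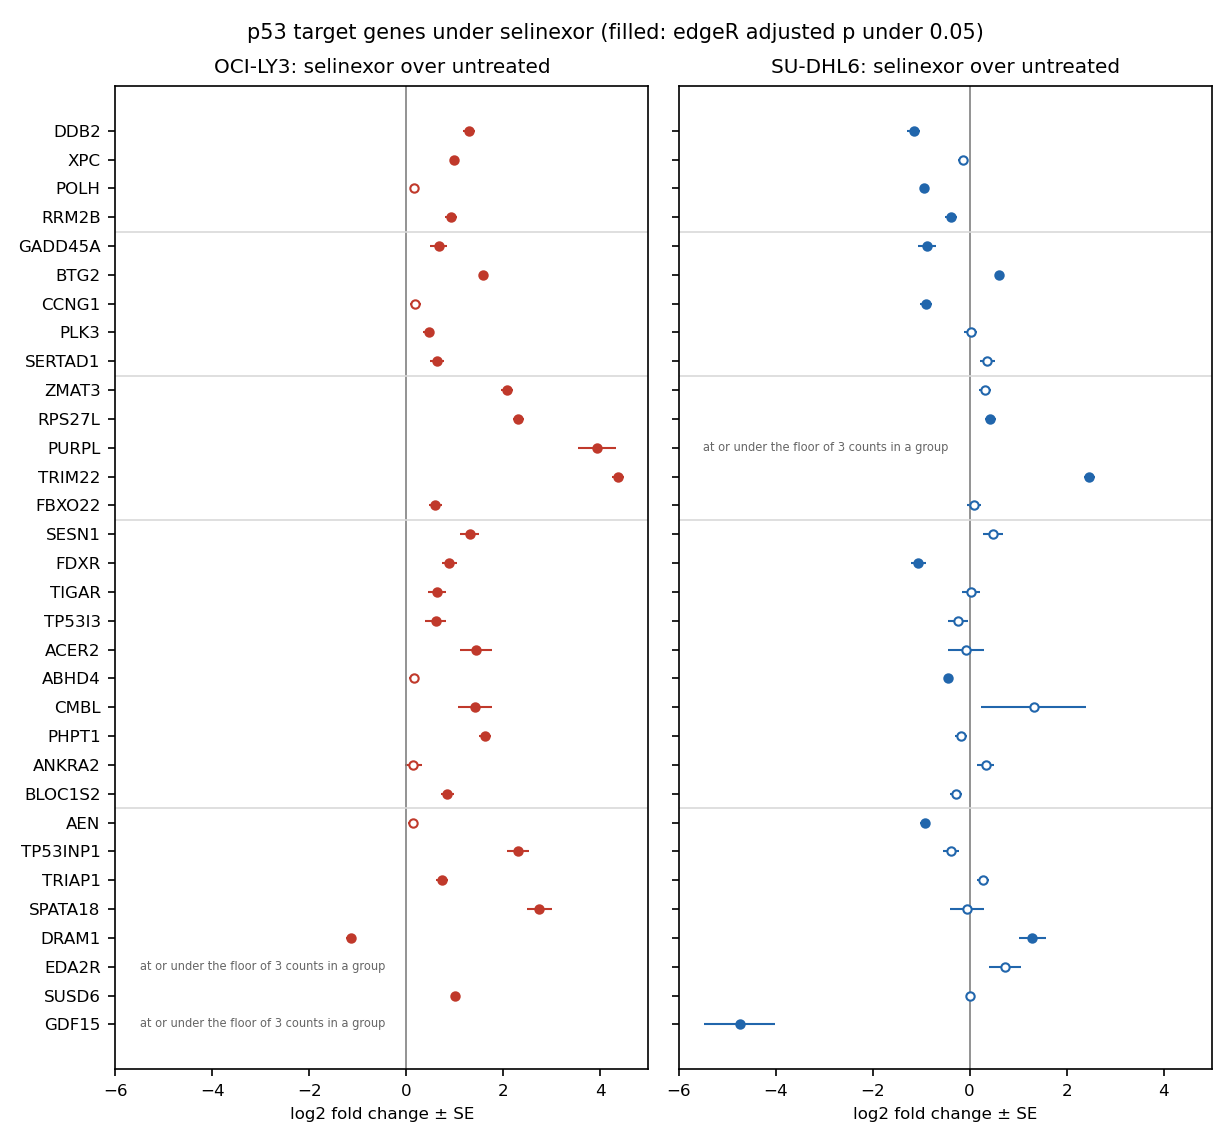
Log2 fold change with its standard error for the 32 target genes that passed the filter, selinexor over untreated, in OCI-LY3 (left) and SU-DHL6 (right), with lines between the role groups. Filled points passed an edgeR adjusted p of 0.05, and genes whose counts were at or under the floor of 3 in both groups, or at 0 in 1 group, are written as such. At few counts, as for DRAM1 in SU-DHL6, the standard error can be too small.

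The DNA repair genes parted between the lines. DDB2 (chr11:47214465-47239240 on GRCh38), which recognises ultraviolet damage for nucleotide excision repair, had 76.8, 87.2 and 87.0 CPM in treated OCI-LY3, against 39.3, 33.0 and 29.5 CPM in untreated OCI-LY3. In SU-DHL6 it had 22.2, 18.5 and 19.8 CPM with selinexor, against 45.7, 39.5 and 49.9 CPM without. The treated libraries lay above all untreated ones in OCI-LY3 and below all of them in SU-DHL6. The log2 fold changes were 1.30 ± 0.13 (SE) in OCI-LY3 (edgeR adjusted p = 2.2e-06) and -1.16 ± 0.13 in SU-DHL6 (edgeR adjusted p = 8.3e-06), and their difference was 2.46 ± 0.18 (edgeR adjusted p = 4.5e-07). DDB1, the partner of DDB2 in its complex, had log2 fold changes of 0.09 and -0.07 in OCI-LY3 and SU-DHL6, and neither passed.

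XPC, the other damage sensor of this pathway, had 148.6, 143.3 and 146.2 CPM in treated OCI-LY3, against 72.9, 75.1 and 72.0 CPM in untreated OCI-LY3. Its log2 fold change there was 0.99 ± 0.10 (edgeR adjusted p = 2.2e-06), and in SU-DHL6 it was -0.14 ± 0.10 without passing the test. Of its protein partners, CETN2 rose in both lines, by 1.34 in OCI-LY3 and 0.59 in SU-DHL6, whereas RAD23B fell by 0.53 in OCI-LY3 on the log2 scale. POLH, the polymerase that copies past ultraviolet lesions, was not called in OCI-LY3 (0.17 ± 0.09) and fell in SU-DHL6, where it had 72.4, 74.4 and 78.7 CPM with selinexor against 144.8, 143.9 and 146.8 CPM without. POLH overlaps GTPBP2 on the opposite strand, which had log2 fold changes of 0.55 in OCI-LY3 and -0.51 in SU-DHL6, both called. Whether the authors' counting used strand is not given in the sources used here.

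RRM2B, the p53-responsive small subunit of ribonucleotide reductase, had 77.8, 80.0 and 84.6 CPM in treated OCI-LY3, against 45.8, 41.7 and 40.1 CPM in untreated OCI-LY3. That rise was 0.93 ± 0.13 on the log2 scale (edgeR adjusted p = 5.7e-05). In SU-DHL6 it had 142.1, 150.2 and 139.7 CPM with selinexor, against 234.0, 156.1 and 172.1 CPM without. All 3 treated values lay below the untreated ones, and the first untreated library stood highest. The fall of 0.38 ± 0.13 on the log2 scale (edgeR adjusted p = 0.025) was not called without that library, at -0.20 with an adjusted p of 0.089, nor without treated replicate 1 or 3, at -0.37 and -0.36, nor in a fit of the SU-DHL6 libraries alone, at -0.37, nor with library totals alone, at -0.12. The other ribonucleotide reductase subunits went down in both lines. The large subunit RRM1 fell by 1.84 in OCI-LY3 and by 1.59 in SU-DHL6. RRM2, the other small subunit, fell by 2.91 and by 2.96.

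Among the growth arrest genes, BTG2 had the highest level of all targets in every group when levels are compared per length. This antiproliferative gene averaged 128.1 FPKM (fragments per kilobase of transcript, scaled to library depth) in treated and 45.9 FPKM in untreated OCI-LY3, and 286.4 FPKM in treated and 157.5 FPKM in untreated SU-DHL6. In counts it had 584.9, 576.5 and 584.4 CPM in treated OCI-LY3, against 197.7, 189.5 and 190.1 CPM in untreated OCI-LY3. SU-DHL6 had 961.2, 967.5 and 932.5 CPM with selinexor, against 604.1, 638.3 and 648.1 CPM without. BTG2 thus rose in both lines, by 1.60 ± 0.08 in OCI-LY3 (edgeR adjusted p = 3.9e-09) and by 0.60 ± 0.08 in SU-DHL6 (edgeR adjusted p = 2.7e-05), and the rise was larger in OCI-LY3 by 1.00 ± 0.11. Its relative BTG1 also rose in both, by 0.98 and 0.28, and BTG3 fell in both, by 0.64 and by 0.59.

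GADD45A, a stress-induced growth arrest gene, had 15.1, 17.7 and 15.3 CPM in treated OCI-LY3, against 11.8, 7.72 and 10.8 CPM in untreated OCI-LY3. It had 6.09, 4.92 and 4.81 CPM in treated SU-DHL6, against 9.16, 11.3 and 8.60 CPM in untreated SU-DHL6. The groups did not overlap in either line, and the directions were opposite, with log2 fold changes of 0.67 ± 0.18 in OCI-LY3 and -0.88 ± 0.19 in SU-DHL6. GADD45B fell in both lines instead, by 2.68 in OCI-LY3 and by 0.37 in SU-DHL6. CCNG1, cyclin G1, which brings a phosphatase to MDM2, was not called in OCI-LY3 (0.19 ± 0.11) and fell by 0.90 ± 0.12 in SU-DHL6. The stress-responsive kinase PLK3 rose by 0.47 ± 0.12 in OCI-LY3. Its relatives PLK1 and PLK4 fell in both lines, by 1.85 and 1.64 in OCI-LY3 and by 1.25 and 1.56 in SU-DHL6. SERTAD1, a regulator of CDK4 and E2F, rose by 0.64 ± 0.15 in OCI-LY3, and its value of 0.37 ± 0.15 in SU-DHL6 did not pass.

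**Figure D3:**
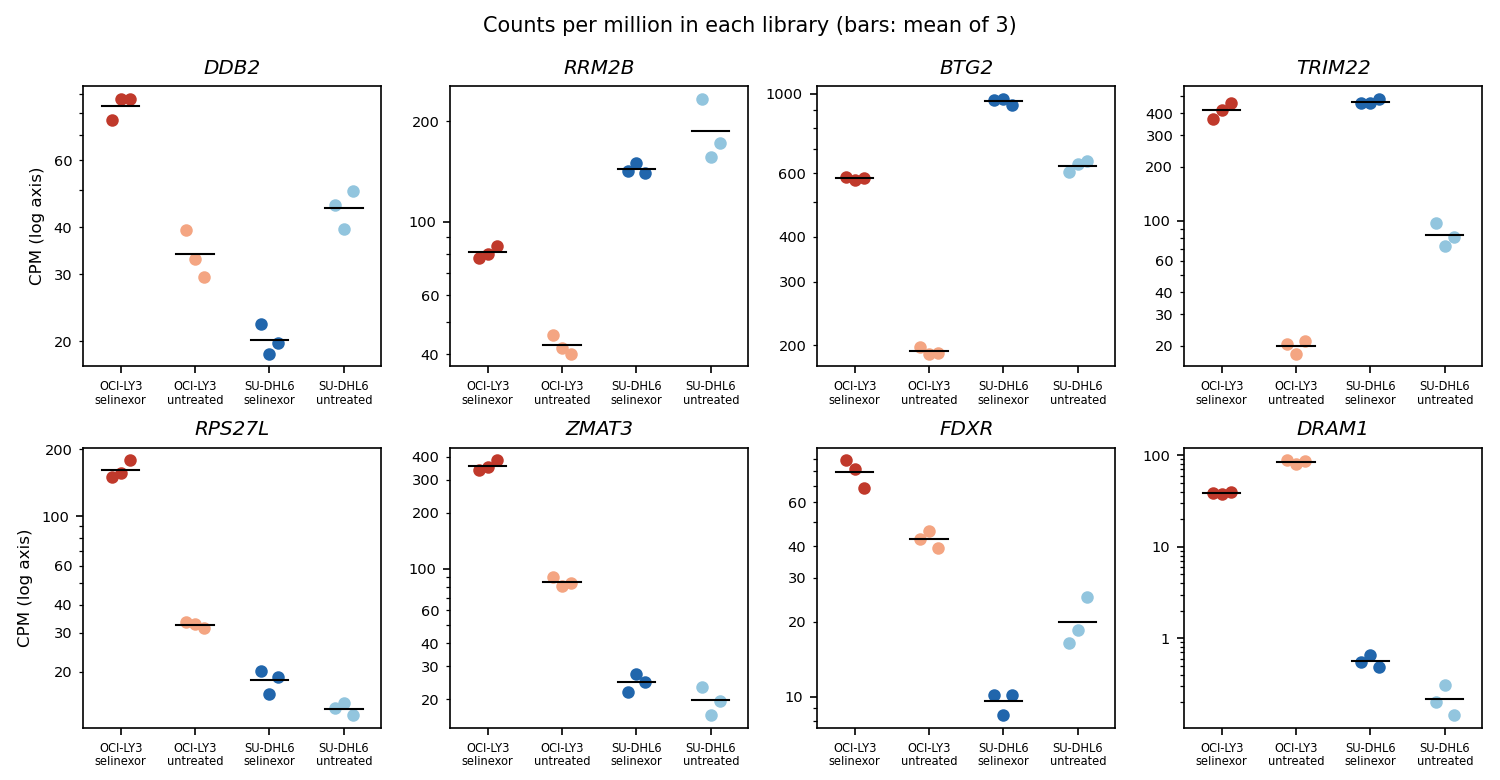
CPM of 8 target genes in each of the 12 libraries on log axes, with treated left of untreated for OCI-LY3 and then for SU-DHL6, and bars at the mean of 3 libraries. DDB2, RRM2B and FDXR lie higher with selinexor in OCI-LY3 and lower in SU-DHL6, BTG2, TRIM22 and RPS27L lie higher in both, ZMAT3 lies higher in treated OCI-LY3 and overlaps between groups in SU-DHL6, and DRAM1 is lower in treated OCI-LY3 and under 1 CPM in SU-DHL6.

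All 5 genes of RNA, ribosome and ubiquitin biology rose in OCI-LY3, where 22.2% of all tested genes rose. In SU-DHL6 2 of the 5 rose (40.0%), against 20.4% of all tested genes. A difference between the lines was called for 3 of the 5. TRIM22 (chr11:5689689-5737089 on GRCh38), an antiviral ubiquitin ligase that interferon also induces, had the largest rise of the targets in OCI-LY3. It had 369.7, 416.5 and 454.5 CPM in treated OCI-LY3, against 20.5, 18.1 and 21.4 CPM in untreated OCI-LY3. In SU-DHL6 it had 456.8, 453.1 and 480.8 CPM with selinexor, against 97.3, 72.6 and 80.9 CPM without. The treated libraries of both lines thus lay between 369.7 and 480.8 CPM, and every untreated library lay below 100 CPM. The log2 fold changes were 4.37 ± 0.13 in OCI-LY3 (edgeR adjusted p = 6.4e-11) and 2.47 ± 0.12 in SU-DHL6 (edgeR adjusted p = 2.4e-09), with a difference of 1.90 ± 0.17. Its neighbours in the same gene cluster, TRIM5, TRIM6 and TRIM34, did not pass in either line, although TRIM5 overlaps TRIM22 on the opposite strand.

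Because TRIM22 also answers to interferon, a list of 31 interferon-stimulated genes is set beside it. In OCI-LY3 12 rose and 4 fell of 25 with counts, with a median of 0.70, and in SU-DHL6 8 rose and 1 fell of 24, with a median of 0.54. The shares higher were 48.0% in OCI-LY3 and 33.3% in SU-DHL6, against 22.2% and 20.4% of all tested genes. The shares lower were 16.0% and 4.17%, against 22.2% and 22.8%. OAS1 rose by 2.89 in OCI-LY3 and had 0.23 in SU-DHL6 without passing, and OAS2 rose in both, by 0.56 in OCI-LY3 and by 0.93 in SU-DHL6. IRF7 rose by 1.20 in OCI-LY3 and by 1.07 in SU-DHL6, and OAS3 fell in both. The part of interferon signalling in the TRIM22 result was not tested.

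RPS27L, a variant of the small-subunit ribosomal protein S27, had 150.5, 156.1 and 178.3 CPM in treated OCI-LY3, against 33.4, 32.9 and 31.6 CPM in untreated OCI-LY3. In SU-DHL6 it had 20.3, 15.9 and 19.0 CPM with selinexor, against 13.7, 14.5 and 12.8 CPM without. Treated libraries were higher than all untreated ones in both lines, by 2.31 ± 0.11 in OCI-LY3 (edgeR adjusted p = 3.9e-09) and 0.43 ± 0.11 in SU-DHL6 (edgeR adjusted p = 0.0076). RPS27 itself rose by 1.02 ± 0.23 in OCI-LY3 and fell by 0.66 ± 0.23 in SU-DHL6, and how reads shared by such near-identical genes were counted is not stated.

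ZMAT3, an RNA-binding zinc finger protein, had 339.7, 351.2 and 382.6 CPM in treated OCI-LY3, against 90.1, 81.2 and 83.6 CPM in untreated OCI-LY3. That is a rise of 2.07 ± 0.12 on the log2 scale (edgeR adjusted p = 2.0e-08). In SU-DHL6 its 21.9, 27.4 and 24.8 CPM with selinexor overlapped the 23.3, 16.4 and 19.7 CPM without, at 0.32 ± 0.13 (edgeR adjusted p = 0.054). PURPL, a long noncoding RNA that restrains p53, had 4.58, 8.72 and 7.70 CPM in treated OCI-LY3, against 0.42, 0.49 and 0.44 CPM in untreated OCI-LY3. This rise of 3.94 ± 0.40 came from 277 counts against 19, and its highest replicate was 1.90-fold its lowest. PURPL passed the filter on low counts only through treated OCI-LY3, where it is high, so its call is not independent of the filter. In SU-DHL6 PURPL had 3 counts with selinexor and 1 without over the groups, too few for a fold change. FBXO22, an F-box protein of a ubiquitin ligase, rose by 0.60 ± 0.14 in OCI-LY3 and had 0.09 ± 0.14 in SU-DHL6.

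Of the metabolic, redox and signalling genes, 8 of 10 with counts rose in OCI-LY3 and none fell, while in SU-DHL6 none rose and FDXR and ABHD4 fell. These are 80.0% higher in OCI-LY3, against 22.2% of all tested genes, and 20.0% lower in SU-DHL6, close to the 22.8% of all tested genes. FDXR, the mitochondrial ferredoxin reductase, had 88.6, 81.4 and 68.7 CPM in treated OCI-LY3, against 42.8, 46.2 and 39.6 CPM in untreated OCI-LY3. In SU-DHL6 it had 10.2, 8.43 and 10.1 CPM with selinexor, against 16.4, 18.5 and 25.1 CPM without. Without overlap in either line, it rose by 0.89 ± 0.15 in OCI-LY3 (edgeR adjusted p = 0.00028) and fell by 1.06 ± 0.16 in SU-DHL6 (edgeR adjusted p = 0.00011). PHPT1, a phosphohistidine phosphatase, had 190.7, 199.6 and 180.7 CPM in treated OCI-LY3, against 59.1, 61.9 and 63.8 CPM in untreated OCI-LY3. It rose by 1.63 ± 0.13 there and had -0.18 ± 0.13 in SU-DHL6 without passing. PHPT1 overlaps MAMDC4 on its own strand, which rose by 1.80 ± 0.23 in OCI-LY3 at 8.47 CPM with selinexor and 2.43 CPM without.

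SESN1, a sestrin that restrains the growth kinase mTORC1, had 23.8, 24.5 and 26.9 CPM in treated OCI-LY3, against 11.6, 8.50 and 10.2 CPM in untreated OCI-LY3. It rose by 1.31 ± 0.19 (edgeR adjusted p = 7.3e-05), whereas SESN2, a sestrin that the stress factor ATF4 also drives, fell by 2.34 in OCI-LY3 and by 2.58 in SU-DHL6. The hydrolase CMBL rose by 1.42 ± 0.36 in OCI-LY3, the ceramidase ACER2 by 1.45 ± 0.33 and the endosomal BLOC-1 subunit BLOC1S2 by 0.85 ± 0.13. TIGAR, which diverts glucose from glycolysis, rose by 0.63 ± 0.19 and was not called without the second untreated OCI-LY3 library (0.52, edgeR adjusted p = 0.062). TP53I3, a quinone oxidoreductase, rose by 0.61 ± 0.21 in OCI-LY3 (edgeR adjusted p = 0.031), but the call was lost when any of the 3 treated libraries, or either of untreated replicates 1 and 3, was left out, with values of 0.42 to 0.64. The lipid hydrolase ABHD4 had 0.16 ± 0.10 in OCI-LY3 and fell by 0.44 ± 0.10 in SU-DHL6, a call that was lost with library totals alone. ANKRA2, an ankyrin-repeat protein, was called in neither line. PHLDA3, a repressor of AKT, had 8 counts in treated OCI-LY3 and none in the other groups. That is 2.86-fold a floor of 3 counts over untreated OCI-LY3. The fold leaves out the counting error of the 8 counts, so the true fold may be smaller, and PHLDA3 was not tested.

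Genes of cell death, autophagy and secreted or surface signals went in both directions in OCI-LY3. TP53INP1, a stress-induced promoter of death and autophagy, had 9.71, 7.45 and 9.13 CPM in treated OCI-LY3, against 1.11, 1.83 and 2.35 CPM in untreated OCI-LY3. It rose by 2.31 ± 0.23 there, and in SU-DHL6, where it averaged 53.2 CPM with selinexor and 69.4 CPM without, its -0.38 ± 0.17 did not pass. SPATA18, which acts in mitochondrial quality control, had 19.7, 17.8 and 20.2 CPM in treated OCI-LY3, against 3.34, 3.02 and 2.20 CPM in untreated OCI-LY3, a rise of 2.75 ± 0.25. In SU-DHL6 it stayed under 1 CPM in all 6 libraries. SUSD6, a membrane protein, rose by 1.01 ± 0.08 in OCI-LY3 and had 0.00 ± 0.08 in SU-DHL6. TRIAP1, a mitochondrial lipid-transfer protein that restrains apoptosis, rose by 0.74 ± 0.13 in OCI-LY3. AEN, an apoptosis-enhancing nuclease, had 0.14 ± 0.10 in OCI-LY3, where it was already at 475 ± 29 CPM untreated (SD, n = 3), and fell by 0.93 ± 0.10 in SU-DHL6, where it averaged 29.9 CPM with selinexor and 57.0 CPM without.

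DRAM1 (chr12:101877351-102012130 on GRCh38), a lysosomal protein of autophagy, fell in OCI-LY3, where GDF15 was the only other target called lower. DRAM1 had 39.1, 37.4 and 39.6 CPM in treated OCI-LY3, against 88.2, 81.0 and 85.7 CPM in untreated OCI-LY3. That is a fall of 1.14 ± 0.11 (edgeR adjusted p = 1.5e-06). In SU-DHL6 it was low, with 31 counts over the treated libraries and 10 over the untreated ones, and rose by 1.30 (edgeR adjusted p = 0.020). That rise was not called when the second treated library or untreated replicate 1 or 3 was left out, at 1.12 to 1.23. GDF15, a secreted stress cytokine, had no count in treated OCI-LY3 and 37 counts in untreated OCI-LY3, at least 11.5-fold lower with a floor of 3 counts over the group. In SU-DHL6 it had 2 counts with selinexor and 53 without, which is 32.8-fold lower with an exact 95% counting interval of 8.64 to 278. GDF15 is also induced by ATF4. Of 20 genes with counts on a list of ATF4 targets, 19 fell in OCI-LY3 and 18 in SU-DHL6, with none higher in either. Among all tested genes 22.2% were lower in OCI-LY3 and 22.8% in SU-DHL6. PSAT1 fell by 3.35 and by 3.38. The 20 include ATF4 itself, which fell in both lines, and SESN2, which is also counted below among the near relatives of the targets. The part of ATF4 in the GDF15 result was not tested. EDA2R, a receptor for an ectodysplasin, had no count in OCI-LY3, and 139 counts with selinexor and 67 without in SU-DHL6, where 0.73 ± 0.32 did not pass (edgeR adjusted p = 0.094).

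Joined across the lines, BTG2, RPS27L and TRIM22 rose in both, and DDB2, FDXR, GADD45A and RRM2B rose in OCI-LY3 and fell in SU-DHL6. A further 17 rose in OCI-LY3 and were not called in SU-DHL6, and 4 (ABHD4, AEN, CCNG1 and POLH) fell in SU-DHL6 without a call in OCI-LY3. Only GDF15 fell in both, DRAM1 fell in OCI-LY3 and rose in SU-DHL6, and ANKRA2 and EDA2R were called in neither. The shares of all tested genes in these joint states are not given here. The counts therefore only sort the members and are not read against a background. For the 17, a difference between the lines was called for ACER2, BLOC1S2, PHPT1, SESN1, SPATA18, SUSD6, TP53I3, TP53INP1, XPC and ZMAT3. It was not called for CMBL, FBXO22, PLK3, PURPL, SERTAD1, TIGAR and TRIAP1, which does not show that these responded alike.

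The genes also stood at different levels before treatment. In untreated OCI-LY3 15 were higher and 12 lower than in untreated SU-DHL6, 46.9% and 37.5% of 32, against 33.6% higher and 33.7% lower among all tested genes. DRAM1 was higher in OCI-LY3 by 8.52 on the log2 scale and CMBL by 6.75. These rest on 10 and 4 counts over untreated SU-DHL6, so their size is uncertain and no SE is given. AEN was higher in OCI-LY3 by 3.06 ± 0.11 and PLK3 by 3.04 ± 0.13. TP53INP1 was lower in OCI-LY3 by 5.30 ± 0.23 (log2 difference of -5.30), RRM2B differed by -2.14 ± 0.13 and TRIM22 by -2.06 ± 0.12. EDA2R was at least 21.1-fold lower in untreated OCI-LY3. Per length, 30 of the 34 genes averaged at least 1 FPKM in treated and 25 in untreated OCI-LY3, and 24 in treated and 23 in untreated SU-DHL6. Summed over all 34, the targets held 3370 to 3432 CPM in treated OCI-LY3 libraries and 1590 to 1664 CPM in untreated ones, and 2182 to 2207 CPM in treated and 1662 to 1771 CPM in untreated SU-DHL6 libraries. Without BTG2 and TRIM22 the sums were 2361 to 2439 CPM in treated and 1383 to 1448 CPM in untreated OCI-LY3. In SU-DHL6 they were 768.7 to 786.2 CPM in treated and 951.5 to 1069 CPM in untreated libraries. BTG2 and TRIM22 had the highest CPM in treated SU-DHL6 and rose in both lines. Leaving them out thus by itself lowers the treated sums relative to the untreated ones.

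**Figure D4:**
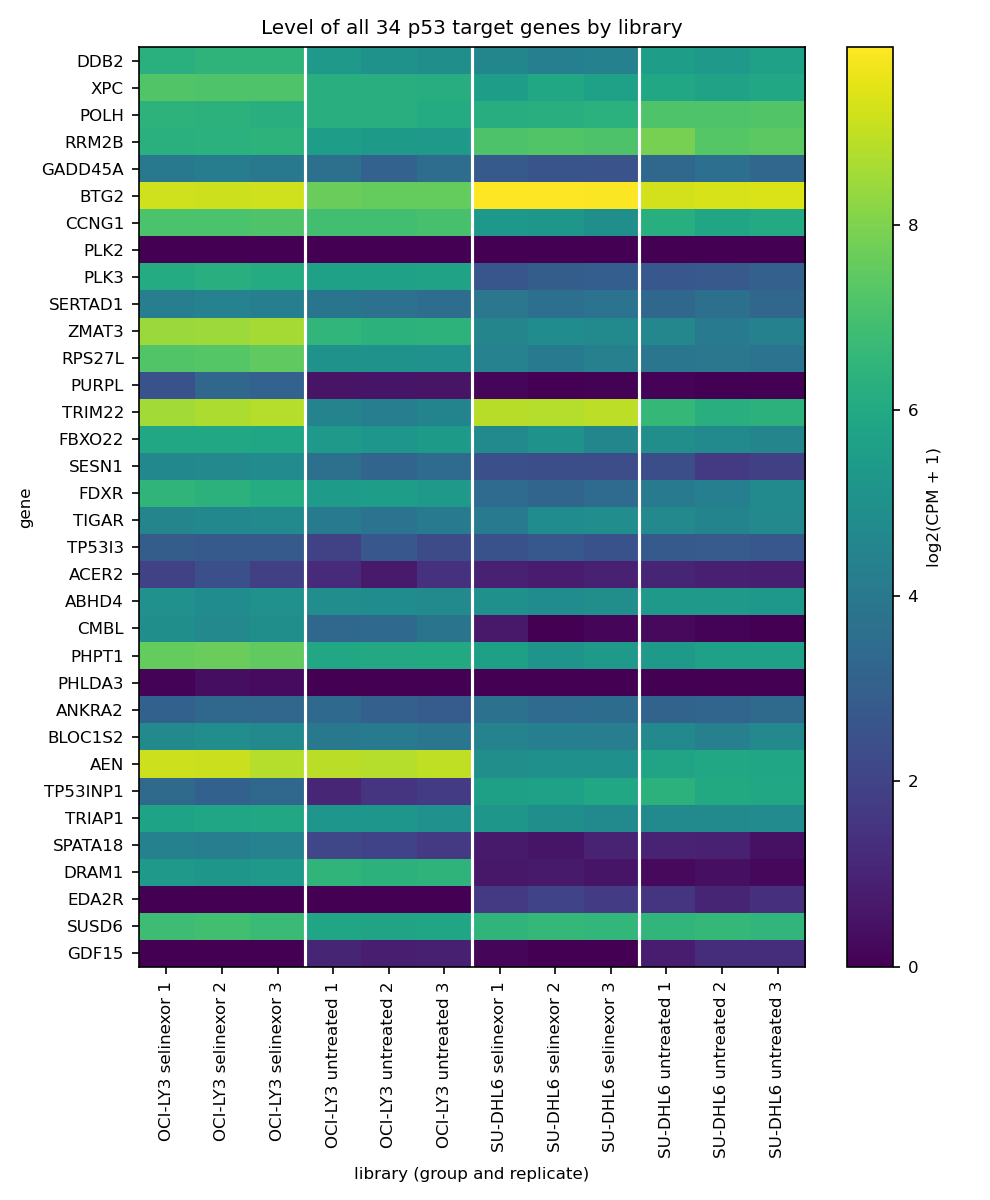
Level of each of the 34 target genes, as log2(CPM + 1), in each of the 12 libraries, with genes ordered by role and treated groups left of untreated ones. BTG2 is bright in every library, and PLK2 is at 0 throughout.

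The regulators and other targets of p53 are given for context, from lists chosen with earlier results of these data known. MDM2 had 133.3, 150.5 and 157.8 CPM in treated OCI-LY3, against 79.3, 83.7 and 69.3 CPM in untreated OCI-LY3, a rise of 0.93 ± 0.14, and its -0.24 ± 0.14 in SU-DHL6 did not pass. CDKN1A, which encodes the cyclin kinase inhibitor p21, averaged 496 CPM in treated and 219 CPM in untreated OCI-LY3, and 9.15 CPM in treated and 62.4 CPM in untreated SU-DHL6. It rose by 1.18 ± 0.11 in OCI-LY3 and fell by 2.77 ± 0.12 in SU-DHL6, with a difference of 3.95 on the log2 scale. Of 18 core and feedback genes, 5 rose and 2 fell of 17 with counts in OCI-LY3, and 4 rose and 7 fell of 18 in SU-DHL6, CHEK1 and CHEK2 being lower in both. The shares higher, 29.4% in OCI-LY3 and 22.2% in SU-DHL6, stood against 22.2% and 20.4% of all tested genes. The shares lower, 11.8% in OCI-LY3 and 38.9% in SU-DHL6, stood against 22.2% and 22.8%.

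Of the apoptosis targets of p53, in OCI-LY3 10 rose and 2 fell of 18 with counts, with a median of 0.61, and in SU-DHL6 4 rose and 7 fell of 16, with a median of -0.30. The shares higher were 55.6% in OCI-LY3 and 25.0% in SU-DHL6, against 22.2% and 20.4% of all tested genes. The shares lower were 11.1% in OCI-LY3 and 43.8% in SU-DHL6, against 22.2% and 22.8%. BAX, the pore-forming death protein, rose by 1.83 ± 0.12 in OCI-LY3 and fell by 0.46 ± 0.12 in SU-DHL6, and the death receptor FAS rose by 3.04 ± 0.30 and fell by 1.83 ± 0.43. SIVA1 fell in both, by 0.72 and by 1.04, and AIFM2 fell by 0.88 in OCI-LY3 and rose by 0.81 in SU-DHL6. PMAIP1 rose by 0.66 in OCI-LY3 and fell by 2.37 in SU-DHL6. A list of 30 cell cycle genes, described as lowered by p53 through p21 and the DREAM complex, is also given. Of these, 29 fell in OCI-LY3 and 30 in SU-DHL6, with medians of -1.55 and -1.56. The shares lower were 96.7% and 100.0%, against 22.2% and 22.8% of all tested genes. The part of p53 and p21 in these falls was not tested. Among near relatives and protein partners of the targets, 6 rose and 9 fell of 25 in OCI-LY3. In SU-DHL6 4 rose and 10 fell of 25. The shares higher, 24.0% and 16.0%, lay near those of all tested genes (22.2% and 20.4%), and the shares lower were 36.0% and 40.0%, against 22.2% and 22.8%. The largest rise was that of PHLDA1 in OCI-LY3 by 3.80 ± 0.41.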

How the data were processed

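The authors deposited 1 table of 58302 genes holding, per the file headers, a count column and an FPKM column for every one of the 12 libraries. These counts, as deposited, are all whole; since 235 genes had exactly 1 in all 12 libraries, some may be rounded estimates. The deposited FPKM values follow from the counts: among 9162 genes of 50 or more counts, the 99th percentile of the ratio between a gene's implied lengths was 1.000012. FPKM served only to order levels between genes. Per the labels' protocols, 1.3 µg of RNA entered an mRNA library kit. Which aligner and counter were used, and whether counting used strand, is not given in the sources used here. GRCm38 and mm10, which are mouse builds, appear in the submitters' processing notes, but the identifiers are human: 58039 were found in GENCODE release 29 on GRCh38, 97.6% of them with identical coordinates.

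The test on counts was edgeR 4.0.16 (R 4.3.3), with 1 model with a coefficient per group over all 12 libraries, with filterByExpr by group (minimum count 10, 16474 genes kept), TMM scaling, the robust quasi-likelihood F test and Benjamini-Hochberg adjustment. Genes were called at an adjusted p under 0.05, and the words rose, fell, higher and lower describe called genes. The standard error (SE) was obtained as the absolute log2 fold change over the root of the F statistic. At few counts, as for DRAM1 in SU-DHL6, it can be smaller than the counting error. CPM are relative to TMM-scaled totals. A fold against a group at 0 counts uses a floor of 3 counts over that group and leaves out the counting error of the other group. Floors and intervals cover counting error only. The code was tested on simulated data. DESeq2 1.42.0, limma 3.58.1 (voom), other scalings, filters and thresholds, each line alone, a replicate block and leaving out each library were alternatives. Promoter sequences are from RefSeq (GRCh38.p14). GADD45A, TP53INP1, FBXO22, TRIM22, CMBL, PHLDA3 and RRM2B had no entry in the table.

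The members, role groups and gene lists were chosen with earlier results of these data known. All 34 members are accounted for. Some results on other genes are not reported here. Besides them the text names MDM2 and CDKN1A, near relatives and protein partners of members, and up to 2 genes per direction and line with the smallest adjusted p from each other list.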

Additional observations from a re-analysis of the deposited data

Results flagged for a closer look

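The response to selinexor differed between OCI-LY3 and SU-DHL6, by the edgeR test of the difference of the responses with adjustment over all 16474 genes, for 22 of the target genes. The difference was positive for 67.7% and negative for 3.23% of the 31 with counts. Among all tested genes it was positive for 19.9% and negative for 17.0%. Each value is the OCI-LY3 response minus the SU-DHL6 response on the log2 scale.

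The largest positive differences were those of SPATA18 (2.81), TP53INP1 (2.70) and DDB2 (2.46). FDXR differed by 1.95, TRIM22 by 1.90, RPS27L by 1.88, PHPT1 by 1.81 and ZMAT3 by 1.75. GADD45A differed by 1.54, ACER2 by 1.52, RRM2B by 1.31, XPC by 1.13, BLOC1S2 by 1.12 and POLH by 1.11. CCNG1 and AEN each differed by 1.08, SUSD6 by 1.01 and BTG2 by 1.00. The smallest were TP53I3 (0.85), SESN1 (0.83) and ABHD4 (0.60). DRAM1 alone was negative, at -2.43, and its level in SU-DHL6 rested on 31 counts with selinexor and 10 without.

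Of these, DDB2, FDXR, GADD45A, RRM2B and DRAM1 were called in opposite directions in the lines. ACER2, SESN1 and TP53I3 lost the call when single libraries were left out: 4 libraries for ACER2, 7 for SESN1 and 10 for TP53I3. With library totals alone these 3 calls and that of ABHD4 were lost, ABHD4 at 0.22 with an edgeR adjusted p of 0.27. The fall of RRM2B in SU-DHL6, 1 of the opposite directions, was lost under several settings.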

How the results depend on the processing

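No called value changed its direction under any alternative. Leaving out each library in turn left 23 to 24 members higher and 2 lower in OCI-LY3, 3 to 5 higher and 8 to 10 lower in SU-DHL6, 18 to 21 with a more positive and 1 with a more negative response in OCI-LY3, and 14 to 16 higher and 10 to 12 lower in untreated OCI-LY3 than in untreated SU-DHL6. Requiring also a log2 change of 1 or more in either direction left 13 higher in OCI-LY3, 2 higher and 3 lower in SU-DHL6, and 6 lower in untreated OCI-LY3 than in untreated SU-DHL6. Library totals alone gave 11 higher and 7 lower in SU-DHL6, where they moved the median of all genes to 0.27, and 17 more positive differences. Uncalled values took another sign in 0 cases in OCI-LY3, 28 in SU-DHL6, 8 for the difference and 2 between the untreated lines. The values looked at numbered 682, 701, 651 and 672 in that order. They include called genes and threshold settings, which keep the main value, so they give no rate among uncalled values. ZMAT3 in SU-DHL6, not called at an adjusted p of 0.054 in edgeR, passed with DESeq2 (0.32, adjusted p = 0.044). The untreated difference of DDB2 was not called without untreated replicate 3 of either line (-0.32 and -0.31), and that of PHPT1 not without the first untreated SU-DHL6 library (0.29). TP53I3 lost its calls in OCI-LY3, in the difference and between the untreated lines under several settings. The cause of these changes was not tested.

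Replicate numbers are shared by the groups but did not pair the libraries: same-numbered treated and untreated libraries deviated together at r = 0.0075, 0.0047 and 0.013 in OCI-LY3 and -0.12, -0.022 and 0.050 in SU-DHL6, and the libraries did not all correlate best with their own number. With the replicate block 24 members were higher and 2 lower in OCI-LY3, 4 higher and 8 lower in SU-DHL6, 18 and 1 differed in response, and 15 were higher and 11 lower in untreated OCI-LY3. The calls it ended were the fall of RRM2B in SU-DHL6 (-0.36, edgeR adjusted p = 0.061), the differences of ACER2 (0.077), SESN1 (0.058) and TP53I3 (0.061), and the untreated difference of TP53I3 (0.063), with adjusted p in parentheses. Depth limits PLK2, PHLDA3, PURPL, GDF15, CMBL and DRAM1 in SU-DHL6 most, since their counts there are few or none.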
